A study of Mus musculus with 15 samples.

Results

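The genes described here are 43 mouse genes for glutathione transferases (GSTs), peroxiredoxins and other redox enzymes, taken by symbol from a list of enzyme families; the list uses no measured value as a criterion, though it was drawn up with earlier results of these data known. All 43 were found among the 41591 gene entries of the deposited read count table, and 41 had enough reads to be tested. The table covers RNA sequencing of whole epididymides from 15 mice aged 7 weeks, 5 in each of 3 groups: Wild type (WT), Plag1 -/+ (HET) and Plag1 -/- (KO). Each library came from 1 animal, and the strain label of every group reads Brown Swiss. Plag1 encodes a zinc finger transcription factor, and the genotype labels give 1 of its copies as mutated in HET and both in KO. The labels name no allele and give no date, litter or batch. Where nothing says more, p-values set a difference between genotypes against the spread between these animals. Tissue was teased open in cold PBS and rinsed against sperm before RNA extraction, so the libraries hold the cells of the duct wall and the tissue around it with whatever lumen content was left.

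The epididymis stores and matures sperm, whose membranes are rich in unsaturated fats and easily oxidised. GSTs join glutathione to reactive molecules, and the mu, alpha, pi, theta, omega, kappa and zeta classes are soluble families while the MGST enzymes sit in membranes. Superoxide dismutases turn superoxide into hydrogen peroxide, which catalase, peroxiredoxins and glutathione peroxidases remove. Glutathione is made by GCLC, GCLM and GSS and returned to its reduced form by GSR, and thioredoxins with their reductases recharge the peroxiredoxins. Many of these genes are known targets of the transcription factor NRF2, which binds the antioxidant response element.

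Near-identical copies limit what can be read from some of these genes, and the pi class shows it most plainly. Gstp1 (chromosome 19, 4035411 to 4037912) and Gstp2 (chromosome 19, 4040288 to 4042221) lie side by side in build GRCm38.p6. Their coding sequences of 633 bases, taken from GENCODE transcripts, differed at 12 positions and were 98.1% identical. A share of 71.1% of the 50-base windows of Gstp1 occurred unchanged in Gstp2, so a read from such a window could be assigned to either gene. The first 90 coding bases are printed because they hold 6 of the differences, marked in capitals, 5′ to 3′ on the coding strand.
Gstp1: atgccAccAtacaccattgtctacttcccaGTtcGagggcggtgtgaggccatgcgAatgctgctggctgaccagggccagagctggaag
Gstp2: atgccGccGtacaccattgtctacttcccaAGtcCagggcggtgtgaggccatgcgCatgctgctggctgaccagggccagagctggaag
Gsta1 and Gsta2 were 97.9% identical over their coding bases, with 49.9% of the windows of Gsta1 shared. In the mu class the closest pair was Gstm1 and Gstm3 at 89.5%. Windows found unchanged in another mu gene made up 32.2% of Gstm3, 19.1% of Gstm1, 11.7% of Gstm6 and 1.8% of Gstm2. No window of Gstm4, Gstm5 or Gstm7 was shared with another mu gene. Values of Gstp1, Gstp2, Gsta1, Gsta2 and Gstm3 are therefore uncertain as levels of single genes. Whether reads shared between copies were counted at all was not tested, so sums over such copies are uncertain too.

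Promoter sequence was at hand for 36 of the 43 genes, from RefSeq for GRCm38.p6 (250 bases before to 50 after each transcription start). The core of the antioxidant response element, TGACNNNGC searched on both strands, was found in the promoters of 8 of these genes, or 22.2%, against 14.0% of the 27025 genes with a promoter. The 8 were Gclm, Gsta3, Gstm5, Gstm7, Mgst1, Prdx1, Sod1 and Txnrd1. The published PLAG1 consensus, searched as a sequence pattern on both strands, was found in 14 of the 36 (38.9%) against 24.7% of all genes. The 14 included Gstm6, Gstp2, Gsto1, Gstz1, Prdx2, Prdx3, Prdx4, Sod1, Sod2 and Cat. Such matches describe letters in a window and not binding. For the 6 genes with an antioxidant response element core before their outermost transcription start, the 59 bases around it are shown. Gstm7 and Txnrd1 had no such match there. The core is in capitals as it reads 5′ to 3′ on the plus strand of GRCm38.p6.
Gclm (chr3:122245398-122245456): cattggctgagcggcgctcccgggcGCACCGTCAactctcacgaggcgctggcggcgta
Gsta3 (chr1:21240439-21240497): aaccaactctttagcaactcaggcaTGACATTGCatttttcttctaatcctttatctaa
Gstm5 (chr3:107895787-107895845): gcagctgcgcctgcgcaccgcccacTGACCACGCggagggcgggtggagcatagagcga
Mgst1 (chr6:138140446-138140504): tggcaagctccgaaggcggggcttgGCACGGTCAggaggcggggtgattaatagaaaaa
Prdx1 (chr4:116685441-116685499): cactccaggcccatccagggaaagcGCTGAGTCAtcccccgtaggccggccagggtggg
Sod1 (chr16:90220681-90220739): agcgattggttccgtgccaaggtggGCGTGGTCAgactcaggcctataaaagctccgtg

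Libraries held 20.3 to 27.8 M counts in WT, 23.6 to 33.8 M in HET and 25.3 to 42 M in KO. Levels are given as CPM, counts scaled to a common library size with TMM factors, and values of single libraries stand in the order of the animal numbers. The order is WT-709, WT-719, WT-720, WT-723 and WT-726, then HET-692, HET-693, HET-715, HET-718 and HET-735, and then KO-694, KO-695, KO-696, KO-738 and KO-739. The meaning of the numbers is not given in the sources used here, but no WT animal had a number under 700, so number range and genotype overlap in part. Plag1 transcripts were present at 12.7 ± 0.87 CPM in WT, 10.2 ± 1.4 in HET and 8.32 ± 0.97 in KO (SD, n = 5 each), a log2 fold change of -0.61 ± 0.10 (SE) in KO against WT (edgeR adjusted p = 0.00493). KO-738 stood apart from the other KO libraries in many genes, and KO-738 and HET-693 were the only libraries with over 1% of counts from ribosomal RNA genes (1.29% and 1.30%). Without KO-738, 2923 genes (15% of those tested) were called in KO against WT in place of 1163. Results that turn on it are given with and without it. KO-739 stood apart in skeletal muscle markers, which summed to 4268 CPM there and to 23.9 to 89.8 in the other libraries. It was the highest library for Gsto1, Gstk1, Prdx3 and Prdx6, and the part of muscle RNA in these values was not tested. KO-695 had the highest sum of 7 fat cell markers, 259.5 CPM against 46.7 to 106.5 in the other libraries. None of these markers passed the test in KO against WT, and the part of fat RNA in the values of KO-695 was not tested. Markers of the labelled tissue were abundant: all 15 principal cell markers of the epididymis had enough reads to be tested, with summed levels of 79780 to 92850 CPM in WT, 86250 to 102000 in HET and 76800 to 94310 in KO.

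Levels between genes are compared per kilobase of exon, in WT, as the mean ± SD of 5 libraries. The highest 3 of the 43 genes were mu class GSTs. Gstm7 stood at 880 ± 39 CPM per kb, followed by Gstm2 at 647 ± 21 and Gstm1 at 484 ± 29.6. The cytosolic Cu/Zn superoxide dismutase gene Sod1 came next at 387 ± 22.5. These 4 genes were ordered the same way in the means with gaps wider than their SDs. Prdx1 (241 ± 23.1) and Prdx6 (222 ± 1.86), both cytosolic peroxiredoxins, did not differ beyond their spread. Mgst1, the main microsomal GST, followed at 190 ± 15.9, and Gstm5 (160 ± 12.6), Txn1 (152 ± 10.7) and Gstm6 (140 ± 4.41) lay close together.

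The 7 mu genes summed to 2350 ± 79.8 CPM per kb, 82.2% of the 2860 of all 23 GST genes. The 3 microsomal genes gave 7.13% of that sum, and the 7 genes of the theta, omega, kappa and zeta classes 5.87%. The 4 alpha genes gave 3.27% and the 2 pi genes 1.41%. These shares hold for the reads as counted and are least certain for the pi class, where the copies share most windows. Per kb, the 6 peroxiredoxins summed to 784 ± 15.9 CPM, and the 3 superoxide dismutases with catalase to 422 ± 22.9. Thioredoxins and their reductases summed to 198 ± 11.5, and the 4 genes of glutathione synthesis and reduction to 74.4 ± 3.53. Within that last role Gclc (25.3 ± 1.8) lay above Gsr (21.2 ± 0.838) and Gclm (21.7 ± 1.9) overlapped with both, while Gss stood lower at 6.23 ± 0.29. At the low end were the extracellular dismutase Sod3 (2.43 ± 0.407 CPM per kb), the omega class gene Gsto2 (0.613 ± 0.118), Gstm3 (0.593 ± 0.213) and the mitochondrial thioredoxin reductase Txnrd2 (0.341 ± 0.337). Gsta1 had 0 to 21 counts and Mgst2 0 to 5 counts in any library, and these are the 2 genes that were not tested.

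**Figure D1:**
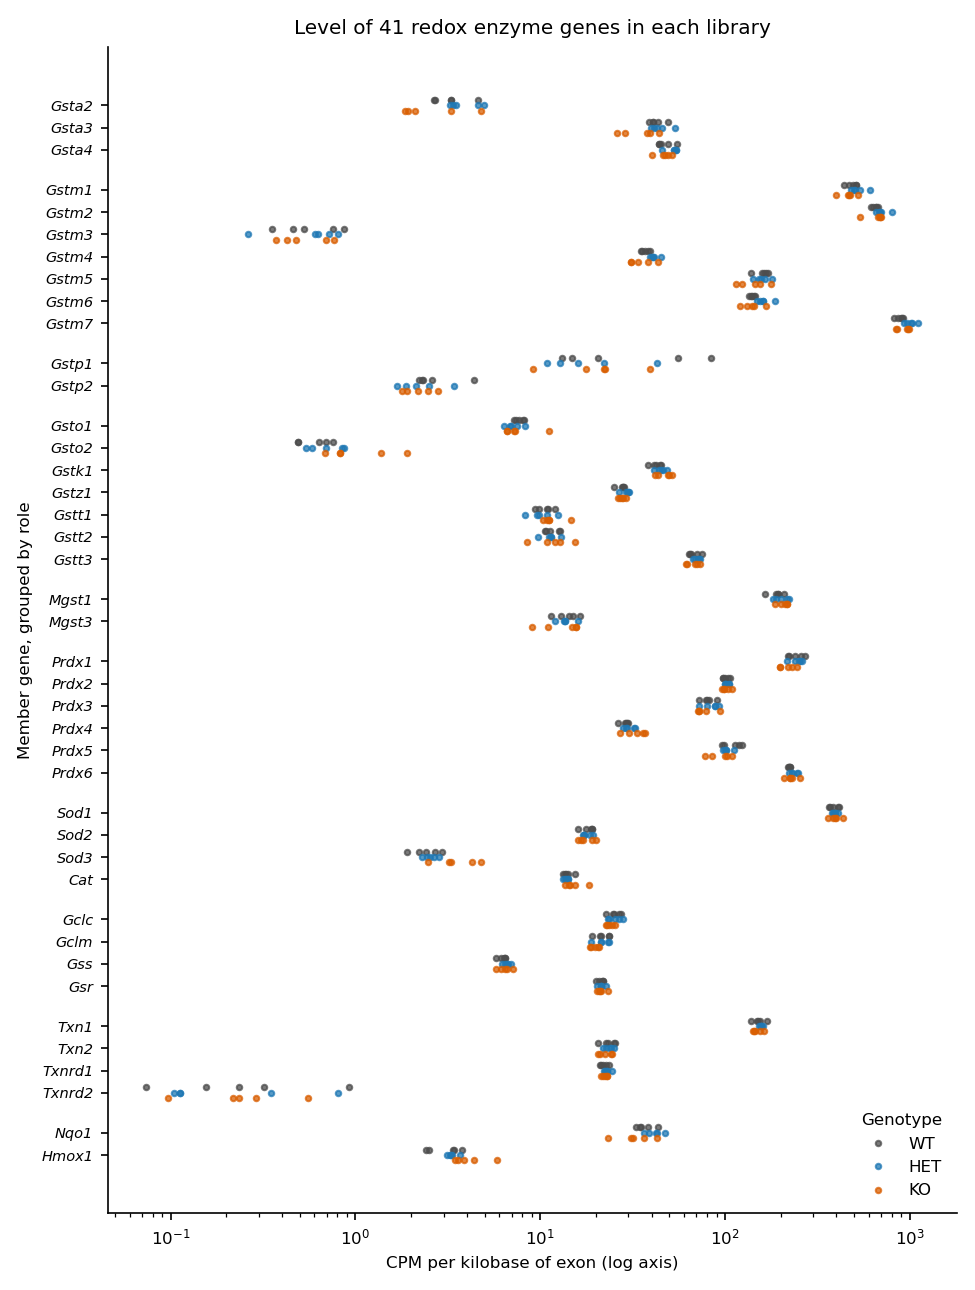
Level of the 41 tested genes in CPM per kilobase of exon (log axis), with 1 point for each of 5 WT, 5 HET and 5 KO libraries and genes grouped by role. In WT the means run from 0.341 (Txnrd2) to 880 (Gstm7), and for most genes the 3 genotypes lie on top of each other.

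The question of the KO against WT comparison is which of these transcripts differ in the epididymis of Plag1 -/- animals. Of the 41 tested genes 1 was called, Sod3, which was higher in KO. That is 2.44% of the genes, against 6.0% of all 19388 genes tested that were called in either direction (4.40% higher and 1.60% lower). At an unadjusted p under 0.05 there were 7 genes (17.1%), against 23.6% of all genes. Sod3, Gsto2, Hmox1, Prdx4 and Gstk1 were on the higher side and Prdx5 and Gsta3 on the lower side. Over the 41 genes 19 estimates were above 0 and 22 below, with a median log2 fold change of -0.012, which is also the median of all genes. No gene had KO and WT libraries that did not overlap, while 4.21% of all genes did. The tests compare animals of 1 tissue in bulk, where fewer cells of a type and less RNA per cell cannot be told apart.

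In the fit of all 15 libraries, the data set a narrow bound on the change for most of these genes. The intervals were not counted without KO-738 or with the number range as a term. The 95% interval of the fold change in KO against WT lay wholly within 1.25-fold in either direction for 26 of the 41 genes, or 63.4%, against 40.0% of all genes. It lay within 1.5-fold for 33 genes (80.5%, against 65.4% of all genes) and within 2-fold for 38 (92.7%, against 85.8%). The width of an interval depends on level, and 34 of the 41 genes had at least 10 CPM. These shares were not matched for level, so they do not show that the genes are steadier than others like them. The 8 genes whose interval passed 1.5-fold were Gsta2, Gstm3, Gstp1, Gstp2, Gsto2, Sod3, Txnrd2 and Hmox1. In HET against WT 26 genes were within 1.25-fold (63.4%, against 47.0% of all genes) and 35 within 1.5-fold (85.4%, against 72.1%).

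**Figure D2:**
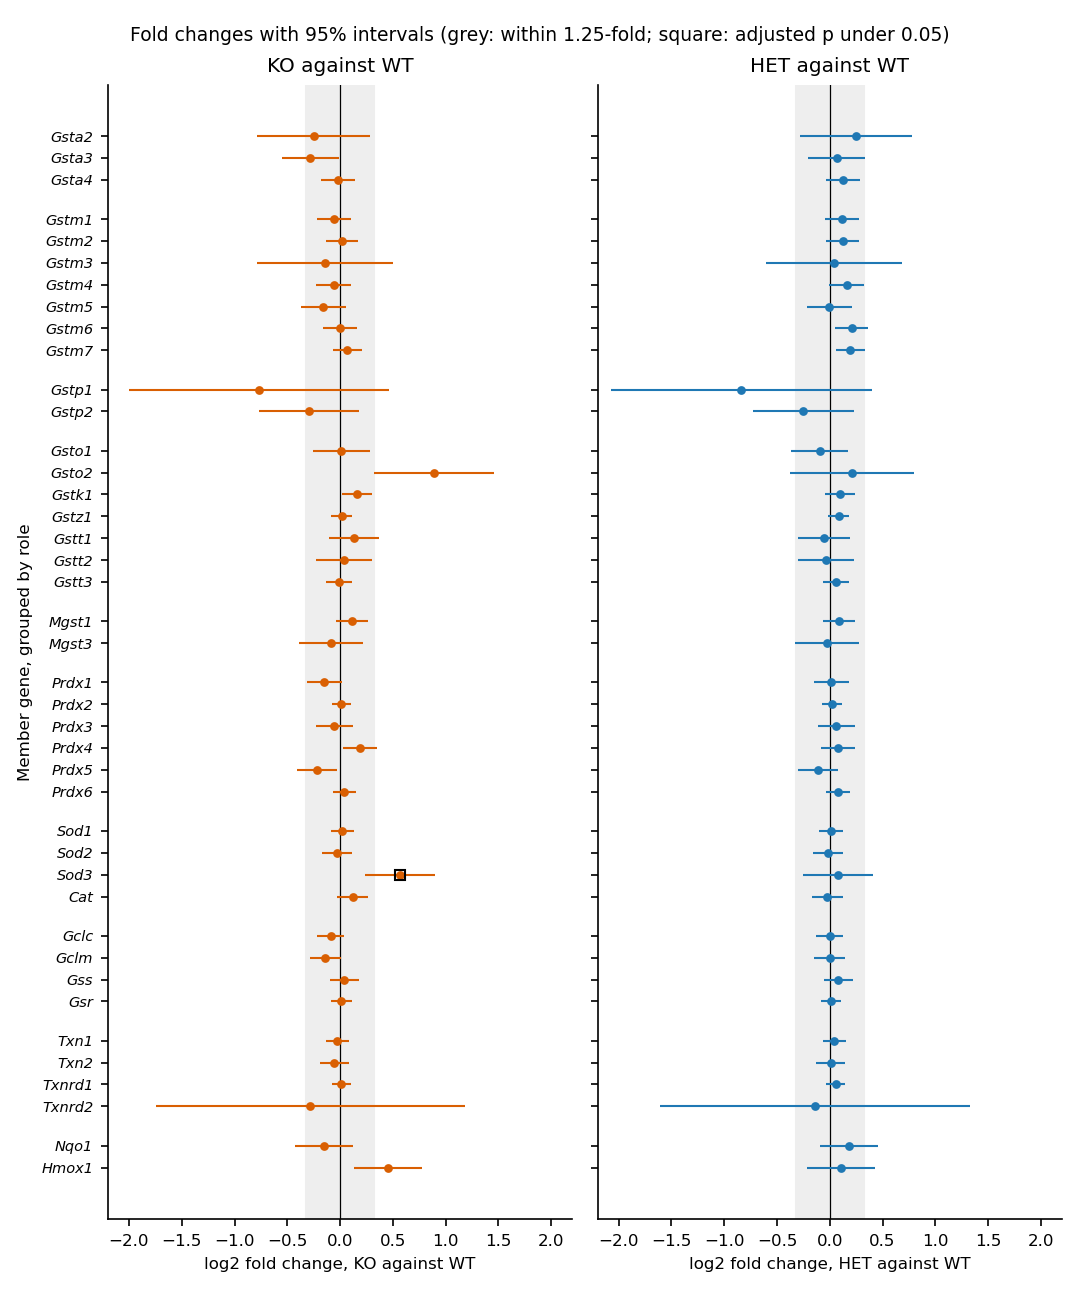
log2 fold change with 95% interval of each tested gene, KO against WT on the left and HET against WT on the right, with the band of 1.25-fold in grey. Both comparisons use the same 5 WT libraries. The square marks Sod3 in KO against WT (0.57), the only gene with an adjusted p under 0.05.

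Sod3, the extracellular superoxide dismutase held at cell surfaces and matrix, stood at 10.1, 8.22, 8.97, 10.96 and 7.09 CPM in WT, 10.6, 8.57, 9.52, 9.97 and 9.12 in HET, and 12.3, 17.8, 16.0, 9.21 and 12 in KO. All KO libraries but KO-738 were above every WT library, and KO-738 lay within the WT range. The means were 9.07 ± 1.5 CPM in WT, 9.56 ± 0.79 in HET and 13.5 ± 3.4 in KO (SD, n = 5 each), and KO was 1.48-fold WT (95% interval 1.18 to 1.87, edgeR quasi-likelihood test, Benjamini-Hochberg adjusted p = 0.0414). HET differed from WT by a log2 fold change of 0.08 ± 0.16, and KO from HET by 0.49 ± 0.15 (edgeR adjusted p = 0.0937). The call was close to its threshold. With 1 library left out at a time it was kept in 3 of 15 fits, namely those without HET-692, KO-738 or KO-739, and lost without any of the other libraries. The values were 0.45 (without KO-695) to 0.68 (without KO-738), and the lowest edgeR adjusted p was 0.00401, without KO-738. With only the animals numbered above 700 the log2 fold change was 0.23 (edgeR adjusted p = 0.532), and with the number range as a term 0.39 (edgeR adjusted p = 0.258).

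Markers of several other cell types were also higher in KO. Of 8 fibroblast markers, none of them at 0 in all libraries, 7 rose in KO against WT and none fell, and their summed level was 1106 to 1458 CPM in WT, 1261 to 1521 in HET and 1331 to 2561 in KO. KO-738, the KO library with the lowest Sod3, had the 1331. The other KO libraries had 1894, 2096, 2561 and 2466 CPM. Of 8 endothelial markers 6 rose, from 122.5 to 148.1 CPM in WT to 180.0 to 244.6 in KO, with KO-738 lowest there too. Of 7 smooth muscle markers none passed the test (2655 to 3220 CPM in WT and 2872 to 3009 in KO). Of 5 mesothelial markers 3 rose, from 30.8 to 38.3 CPM in WT to 41.3 to 65.5 in KO. Of 9 macrophage markers 6 rose, and KO-738 was again the lowest KO library in both lists. The macrophage sum and the fat cell sum were highest in KO-695, the library highest in Sod3. The fibroblast sum was highest in KO-696, the endothelial sum in KO-739 and the mesothelial sum in KO-694. The part of these cells in the Sod3 difference was not tested.

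Gsto2, an omega class transferase that also reduces dehydroascorbate, stood at 1.11, 1.20, 0.857, 1.32 and 0.856 CPM in WT, 1.47, 1.52, 1.02, 0.946 and 1.20 in HET, and 1.43, 2.40, 3.32, 1.44 and 1.19 in KO. KO-695 and KO-696 were the highest 2 of all libraries, and the other KO libraries reached into the WT and HET range. KO was 1.85-fold WT (95% interval 1.25 to 2.74), which did not pass the threshold (edgeR adjusted p = 0.0600). In KO against HET the log2 fold change was 0.68 ± 0.26 (edgeR adjusted p = 0.151), and in HET against WT 0.21 ± 0.28. The result depended on the setting: in KO against WT DESeq2 gave an adjusted p of 0.0326, and edgeR gave 0.99 (adjusted p = 0.0246) without KO-738 and 1.03 (adjusted p = 0.0377) without KO-739. It gave 0.60 (edgeR adjusted p = 0.165) without KO-696, 0.41 (edgeR adjusted p = 0.412) with the number range as a term, and 0.30 (edgeR adjusted p = 0.537) with only the animals above 700. Germ cell markers were highest in the same 2 libraries. Of 10 such markers, none at 0 in all libraries, 4 rose in KO against WT, and their sum was 29.4 to 68.6 CPM in WT, 45.7 to 90.8 in HET and 30.2 to 197.8 in KO, with 124.2 in KO-695 and 197.8 in KO-696. The part of germ cell RNA in the Gsto2 values was not tested. Its neighbour in the class, Gsto1, had a log2 fold change of 0.01 ± 0.13 in KO against WT.

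Hmox1, which encodes the inducible haem oxygenase, stood at 3.76, 5.32, 5.93, 5.37 and 3.91 CPM in WT, 5.76, 4.88, 5.22, 5.17 and 5.12 in HET, and 5.65, 9.14, 6.10, 5.45 and 6.87 in KO. Again KO-695 was the highest library, and the other KO libraries lay between 5.45 and 6.87 against a WT range of 3.76 to 5.93. KO was 1.37-fold WT (95% interval 1.09 to 1.71), short of the threshold (edgeR adjusted p = 0.0842). DESeq2 gave an adjusted p of 0.0487, and edgeR gave one of 0.0364 without KO-738 and of 0.200 without KO-695. Macrophage markers were also higher in KO: 6 of 9 rose against WT, and none was at 0 in all libraries. Their sum was 87.7 to 109.1 CPM in WT and 104.4 to 120.9 in HET. In KO it was 171.5 in KO-694, 188.8 in KO-695, 166.8 in KO-696, 109.5 in KO-738 and 179.8 in KO-739. KO-694 thus had a macrophage sum above every WT and HET library, with Hmox1 (5.65 CPM) inside the WT range. KO-695 also had the highest fat cell sum (259.5 CPM). The part of these cells in the Hmox1 values was not tested.

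**Figure D3:**
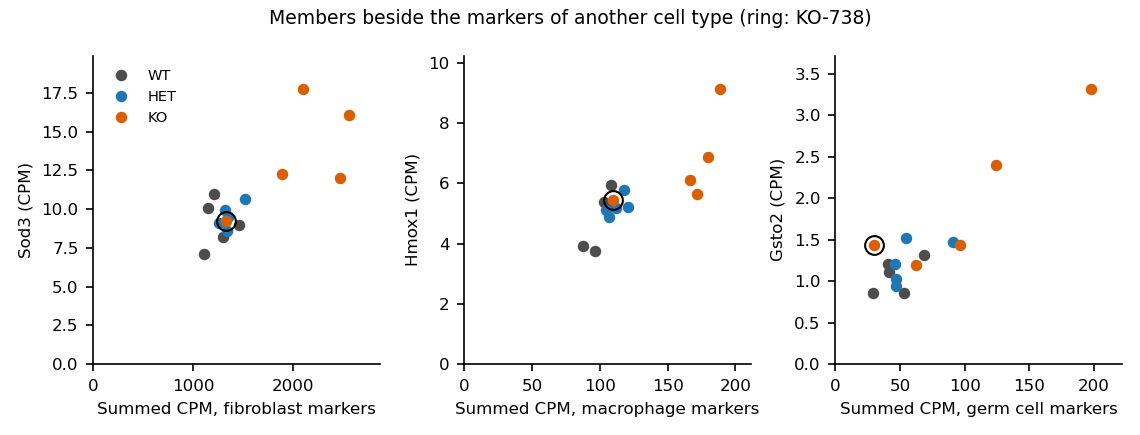
CPM of Sod3, Hmox1 and Gsto2 in each of the 15 libraries against the summed CPM of 8 fibroblast, 9 macrophage and 10 germ cell markers, with KO-738 ringed. The ringed KO library has the lowest KO sum in every panel, and it lies among the WT and HET points for Sod3 and Hmox1.

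In the alpha class of GSTs, known for conjugating products of lipid oxidation, 3 of 4 genes were tested and none was called. Gsta3, the most abundant by CPM, stood at 67.5, 62.9, 59.9, 63.2 and 76.6 CPM in WT, 61.3, 63.8, 83.0, 66.7 and 70.6 in HET, and 58.4, 44.4, 40.5, 68.0 and 60.7 in KO. KO-695 and KO-696 were the lowest 2 of all libraries, and KO-738 (68.0) lay above the WT mean of 66.0. The log2 fold change was -0.28 ± 0.13 in KO against WT (edgeR adjusted p = 0.197) and -0.35 ± 0.13 in KO against HET (edgeR adjusted p = 0.138). With only animals numbered above 700 it was -0.03 in KO against WT. Gsta2 had estimates of -0.25 ± 0.25 in KO and 0.25 ± 0.25 in HET, each against WT, and Gsta1 and Gsta2 summed to 2.97 ± 0.70 CPM in WT, 3.53 ± 0.69 in HET and 2.67 ± 1.0 in KO. Gsta4 was at -0.02 ± 0.08 in KO against WT.

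The mu class is the bulk of GST transcripts here, and none of its 7 genes was called in any comparison. Summed over the class, the level was 3114 ± 109 CPM in WT, 3455 ± 249 in HET and 3143 ± 265 in KO (SD, n = 5 each). In KO against WT the 7 log2 fold changes ran from -0.16 (Gstm5) to 0.07 (Gstm7). In HET against WT 6 of the 7 estimates were above 0, up to 0.21, and in KO against HET all 7 were below 0, down to -0.22. The last 2 comparisons share the HET libraries, so the opposite signs are not independent.

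Gstm7 stood at 1256, 1199, 1306, 1343 and 1315 CPM in WT, 1359, 1471, 1620, 1491 and 1404 in HET, and 1439, 1239, 1221, 1432 and 1405 in KO. Every HET library was above every WT library, and KO-695 and KO-696 lay within the WT range. Its log2 fold change was 0.07 ± 0.07 in KO against WT and 0.19 ± 0.07 in HET against WT, with an unadjusted p of 0.00934 and an edgeR adjusted p of 0.981. Gstm6 stood at 178, 172, 180.3, 166 and 172 CPM in WT, 184, 192, 230.1, 199 and 197 in HET, and 176, 162, 149.6, 206 and 174 in KO. Here too every HET library was above every WT library, and HET-715 was the highest and KO-696 the lowest of all 15. Its log2 fold change was 0.21 ± 0.07 in HET against WT (unadjusted p = 0.0137, edgeR adjusted p = 0.981) and -0.21 ± 0.07 in KO against HET (edgeR adjusted p = 0.128). HET and WT libraries did not overlap in 1.04% of all genes, and Gstm6 and Gstm7 were the 2 of 41 here.

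Gstm1 stood at 700.2, 604, 639, 674 and 694.02 CPM in WT, 680.4, 653, 828, 689 and 730.4 in HET, and 638, 649, 544, 714 and 633 in KO. Its highest library was HET-715 and its lowest KO-696, and the genotypes otherwise overlapped. It was at a log2 fold change of -0.06 ± 0.08 in KO against WT and -0.17 ± 0.08 in KO against HET (edgeR adjusted p = 0.210). Gstm4 stood at 59.8, 61.0, 65.0, 62.8 and 67.2 CPM in WT, 68.7, 69.5, 77.2, 70.2 and 67.2 in HET, and 57.9, 53.0, 52.8, 73.6 and 65.3 in KO. KO-695 and KO-696 were the lowest 2 libraries and HET-715 and KO-738 the highest 2. It was at -0.06 ± 0.08 in KO against WT and -0.22 ± 0.08 in KO against HET (edgeR adjusted p = 0.128). Gstm2 was at 0.02 ± 0.07 in KO against WT, with a 95% interval from -0.13 to 0.17. Gstm3 was low and had a wider bound, with an interval from -0.78 to 0.50 that passed 1.5-fold and lay within 2-fold.

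Gstp1, the pi class transferase, varied more across the 15 libraries than any other tested gene of the 41 except Txnrd2, and it was high in libraries of each genotype. It stood at 45.4, 10.8, 16.8, 12.2 and 68.6 CPM in WT, 13.1, 18.2, 35.2, 8.99 and 10.4 in HET, and 32.3, 18.3, 7.48, 14.5 and 18.1 in KO. WT-709, WT-726, HET-715 and KO-694 had 32.3 to 68.6 CPM while every other library had 7.48 to 18.3. From the lowest to the highest library the ratio was 9.17, with a coefficient of variation of 76.2%. The log2 fold change was -0.77 ± 0.57 in KO against WT, with a 95% interval from -2.0 to 0.46, so a difference between genotypes was not detectable against this spread. The estimate was -0.25 without WT-726, -1.07 without KO-694 and -0.27 with limma voom. Its copy Gstp2 ranged from 1.34 to 3.51 CPM, and the highest Gstp2 library was WT-719, where Gstp1 was at 10.8. Gstp1 and Gstp2 together gave 33.0 ± 25 CPM in WT, 19.0 ± 10.5 in HET and 19.9 ± 9.0 in KO. The pseudogene Gstp-ps, another place to which such reads could be assigned, had 0.280 to 1.16 CPM.

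**Figure D4:**
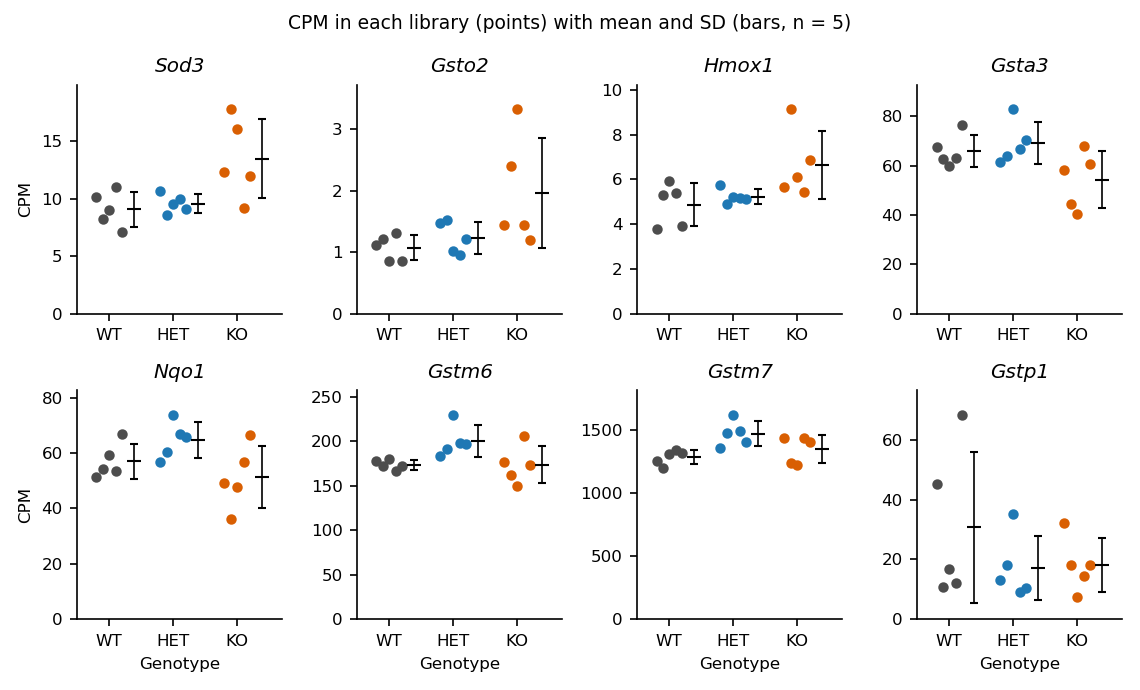
CPM of 8 of the genes in each library, with the mean and SD of the 5 libraries per genotype beside the points. Sod3 is higher in 4 of 5 KO libraries than in any WT library, Gstm6 and Gstm7 are higher in all 5 HET libraries than in any WT library, and Gstp1 spreads from 7.48 to 68.6 with a high library in each genotype.

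Among the other soluble classes Gstt3, a theta class gene, had the highest level at 120.4, 123, 141, 134 and 122 CPM in WT, 135, 136, 130.2, 137 and 127 in HET, and 116, 129.6, 133, 139 and 117 in KO. The 3 ranges overlapped, and KO differed from WT by -0.01 ± 0.06 on the log2 scale, with a 95% interval from -0.14 to 0.11. Gstk1, the kappa class gene whose product is found in mitochondria and peroxisomes, stood at 35.5, 41.3, 38.2, 39.3 and 41.8 CPM in WT, 38.6, 43.0, 45.0, 41.044 and 41.7 in HET, and 40.3, 38.9, 46.2, 45.5 and 48.2 in KO. The KO libraries reached highest, in KO-739, and lay in part inside the WT range. Its estimate was 0.16 ± 0.07 (edgeR adjusted p = 0.149). Gstz1, which acts in tyrosine breakdown, had one of the tightest estimates, 0.01 ± 0.05 in KO against WT. Gstt1 (0.13 ± 0.11) and Gstt2 (0.04 ± 0.12) were not called.

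Of the microsomal enzymes, Mgst1 stood at 301, 382, 348, 355 and 355 CPM in WT, 333, 406, 398, 367 and 345 in HET, and 385, 397, 367, 339.6 and 396 in KO. Its lowest library was WT-709 and the genotypes overlapped. KO differed from WT by 0.12 ± 0.07 (95% interval -0.03 to 0.27), and Mgst3 by -0.09 ± 0.14.

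None of the 6 peroxiredoxin genes was called. Prdx1 stood at 562, 692.06, 605, 557 and 656 CPM in WT, 549.9, 644, 662, 637 and 609.7 in HET, and 502, 507, 557, 620.1 and 586 in KO. KO-694 and KO-695 were the lowest 2 libraries and WT-719 was the highest. The log2 fold change in KO against WT was -0.15 ± 0.08 (edgeR adjusted p = 0.260), and -0.02 with only the animals above 700. Prdx4, whose product works in the endoplasmic reticulum, stood at 29.2, 28.3, 26.2, 29.5 and 28.8 CPM in WT, 28.9, 32.1, 31.6, 29.1 and 27.9 in HET, and 29.8, 36.4, 33.2, 26.7 and 35.6 in KO. KO-695 and KO-739 were the highest 2 libraries and only WT-720 was lower than KO-738. Its estimate was 0.19 ± 0.08 (edgeR adjusted p = 0.147), and without KO-738 it was 0.25 and called (edgeR adjusted p = 0.0151).

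Prdx5, found in mitochondria, peroxisomes and cytosol, stood at 173, 143, 164, 178 and 139 CPM in WT, 161, 145, 146, 140.4 and 147 in HET, and 145, 157, 123, 149 and 113 in KO. KO-739 and KO-696 were lowest and the other KO libraries lay within the WT range. It was at -0.21 ± 0.09 in KO against WT (edgeR adjusted p = 0.153). Prdx2 was the steadiest of the 41 across all 15 libraries, with a coefficient of variation of 3.72% and a log2 fold change of 0.01 ± 0.04 in KO against WT. Prdx6 varied by only 0.834% among the WT libraries, the lowest of the 41 genes there, and was at 0.04 ± 0.05 in KO against WT. Prdx3, the mitochondrial form, was at -0.05 ± 0.08.

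Beside Sod3, the cytosolic and mitochondrial dismutases and catalase were not called. Sod1 stood at 263, 233, 245, 264 and 237 CPM in WT, 261, 246, 252, 251 and 242 in HET, and 254, 278, 231, 250.5 and 247 in KO. KO-695 had the highest and KO-696 the lowest level of all 15, so the KO group spanned the other groups. The log2 fold change was 0.02 ± 0.05 (95% interval -0.09 to 0.13). Sod2 was at -0.03 ± 0.07 and Cat at 0.12 ± 0.07 in KO against WT.

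In glutathione synthesis, Gclm, the modifier subunit of glutamate-cysteine ligase, was highest by CPM at 119.5, 132, 117, 106 and 131 CPM in WT, 105, 119.6, 132, 119 and 129.6 in HET, and 110.0, 105, 114, 117 and 104 in KO. The groups overlapped, with KO between 104 and 117. It was at -0.14 ± 0.07 in KO against WT (edgeR adjusted p = 0.232), and Gclc, the catalytic subunit, was at -0.09 ± 0.06. Gss (0.04 ± 0.07) and Gsr (0.01 ± 0.05) had intervals within 1.25-fold. In the thioredoxin system Txn1, the cytosolic thioredoxin, stood at 145, 162, 176, 156 and 159 CPM in WT, 165, 164, 168, 165 and 161 in HET, and 149.8, 162, 153, 170.1 and 148 in KO. Its 3 groups overlapped, and KO against WT was at -0.03 ± 0.05. Txnrd1 was at 0.01 ± 0.04 and varied by 4.02% over the 15 libraries. Txnrd2 ranged from 0.256 to 3.18 CPM, a ratio of 12.4, with high libraries in WT-726 and HET-692, and its interval ran from -1.75 to 1.19.

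Nqo1, a quinone reductase and a standard readout of NRF2, stood at 51.2, 54.3, 59.1, 53.5 and 67.0 CPM in WT, 56.7, 60.3, 73.9, 66.8 and 65.9 in HET, and 49.1, 36.1, 47.8, 56.8 and 66.4 in KO. HET-715 was highest and KO-695 lowest, while KO-739 (66.4) was close to the highest WT library (67.0). The log2 fold change was -0.15 ± 0.13 in KO against WT, 0.18 ± 0.13 in HET against WT and -0.34 ± 0.13 in KO against HET (edgeR adjusted p = 0.150). Its sign in KO against WT was not stable: with the number range as a term the value was 0.04, and with only animals above 700 it was 0.12.

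In HET against WT none of the 41 genes passed the edgeR threshold, and none of all 19388 genes did either (0%). At an unadjusted p under 0.05 there were 2 of 41 (4.88%), Gstm7 and Gstm6, against 4.40% of all genes (854). DESeq2 and limma voom called none of the 41. Over all genes DESeq2 called 1 and limma voom 0. Of the estimates 28 were above 0 and 13 below, with a median of 0.06 against 0.01 over all genes.

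In KO against HET none of the 41 passed, against 1.96% of all genes (380), of which 1.61% were higher and 0.351% lower in KO. At an unadjusted p under 0.05 there were 8 (19.5%), against 20.8% of all genes. On the higher side were Sod3, Gsto2 and Hmox1, and on the lower side Gstm6, Gstm4, Gsta3, Nqo1 and Gstm1. No gene had KO and HET libraries that did not overlap, against 3.60% of all genes. DESeq2 called 1 gene, Sod3, against 6.57% of all genes. Against 10.1% of all genes, limma voom with quality weights called 7, of which Sod3 was higher and Gsta2, Gsta3, Gstm4, Gstm6, Prdx1 and Nqo1 were lower in KO. Leaving out KO-738 gave 5 calls in edgeR (Sod3 higher; Gsta2, Gsta3, Gstm4 and Gstm6 lower), against 12.5% of all genes. With only the animals above 700 none was called and the values in KO against HET were closer to 0, at -0.02 for Gstm4, -0.11 for Gstm6, -0.17 for Gsta3, -0.13 for Nqo1, 0.18 for Sod3 and 0.34 for Gsto2. Leaving out KO-738 thus raised the count of calls in both comparisons with KO. In KO against WT the count without it was 4 (Sod3, Gsto2, Hmox1 and Prdx4, all higher), against 15% of all genes. There the count fell to 0 in 12 of the 15 fits that left out 1 library.

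Some libraries were extreme for many of the genes. HET-715 was the highest of the 15 libraries for 11 of the 41 genes (26.8%), while it was highest for 6.95% of all genes. The 11 were 6 of the 7 mu genes (Gstm1, Gstm2, Gstm4, Gstm5, Gstm6 and Gstm7) with Gsta2, Gsta3, Gclm, Txnrd1 and Nqo1. KO-696 was the lowest for 9 genes (22.0%, against 8.41% of all genes), among them Gstm1, Gstm2, Gstm4, Gstm6, Gsta3 and Gstp1. KO-695 was the highest for 9 genes (22.0% against 12%), including Sod1, Sod3, Cat, Gsr, Hmox1, Prdx2 and Prdx4, and the lowest for 6 (14.6% against 13.8%), including Gsta2, Gclc and Nqo1. KO-738 was lowest for none, against 4.34% of all genes. Its mu class sum of 3433 CPM was the highest of the KO libraries and KO-696 had the lowest of all at 2730, while HET-715 had 3889.

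Replicate spread was close to that of other genes. Over the 34 genes with at least 10 CPM the median coefficient of variation was 7.05% in WT, 6.9% in HET and 9.38% in KO, against 7.33%, 6.14% and 8.55% over all genes of that level. Txnrd2 had the highest value of the 41 in each genotype (98.9%, 102% and 60.6%).

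**Figure D5:**
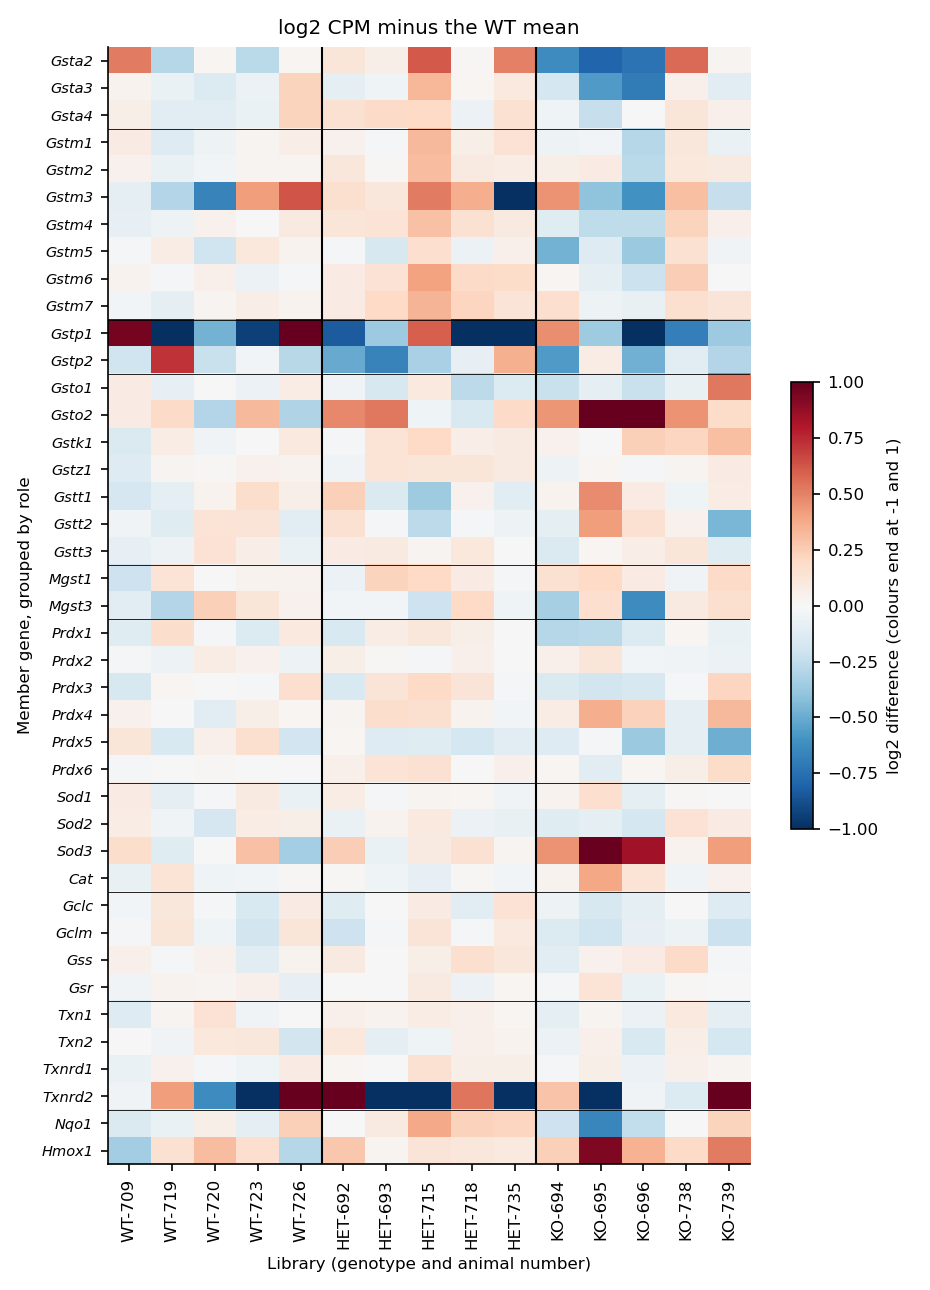
log2 CPM of each tested gene in each library minus its WT mean, with colours ending at -1 and 1, libraries in columns by genotype and genes in rows by role. HET-715 is red and KO-696 mostly blue through the mu genes, and the Gstp1 and Txnrd2 rows are mixed in every genotype.

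Related genes outside the 43 were taken from 7 lists. Of their 100 different genes with a test, 7 were called in KO against WT, or 7%, near the share of all genes given above. Of 8 glutathione peroxidases 1 rose and 2 fell. Gpx3, the secreted glutathione peroxidase, fell by 0.67 ± 0.19 on the log2 scale (edgeR adjusted p = 0.0454), from 3335 ± 375 CPM in WT to 2094 ± 799 in KO, with 3474 in KO-738 and 1460 to 2027 in the other KO libraries. Gpx4, which protects membrane lipids, fell by 0.28 ± 0.08 (edgeR adjusted p = 0.0406), and Gpx6 rose by 0.97 ± 0.22 (edgeR adjusted p = 0.0266), led by 141.1 CPM in KO-739, the library with the skeletal muscle markers. Among 12 tested GST-related genes 1 changed: Ptges, a microsomal prostaglandin E synthase, fell by 0.36 ± 0.10 (edgeR adjusted p = 0.0448). Among 19 genes of glutathione breakdown and transport Dpep1, a dipeptidase, rose by 0.40 ± 0.11 (edgeR adjusted p = 0.0366).

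Of 25 further thioredoxin, glutaredoxin and methionine sulfoxide reductase genes 1 rose, Nme8, a thioredoxin-domain gene known from testis and cilia, by 1.71 ± 0.41 (edgeR adjusted p = 0.0278). It stood at 0.499, 0.652, 0.393, 0.511 and 0.652 CPM in WT, 0.912, 0.796, 0.634, 0.619 and 0.516 in HET, and 2.05, 1.65, 3.39, 0.376 and 1.28 in KO. Its highest library was KO-696, the one with the highest sum of germ cell markers, and KO-738 was the lowest of all 15; the part of germ cell RNA was not tested. Among 10 tested oxidase genes Aox1, an aldehyde oxidase, rose by 0.35 ± 0.10 (edgeR adjusted p = 0.0467). None of 23 NRF2 regulators and other NRF2 targets passed, with a median log2 fold change of -0.05 and 7 of 23 above 0, and none of 9 genes of NADPH supply did (median -0.03). No gene of any of the 7 lists passed in HET against WT, where 0% of all genes did, or in KO against HET, where 1.96% did. The 7 calls named from the lists were each lost under 9 to 18 of the alternative analyses described with the processing.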

How the data were processed

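The deposited values are raw read counts per NCBI Gene ID, which the authors made with FastQC, HISAT2 2.0.5 and featureCounts (Subread 1.4.6p5) on GRCm38.p6, per the submitters' processing notes. Libraries came from the TruSeq Stranded mRNA kit and 2 µg of RNA, per the labels' protocols. The strand setting of the counting is not given in the sources used here, so overlapping and near-identical genes are uncertain. Gene symbols came from RefSeq's GRCm38.p6 gene table for 40290 of the 41591 IDs and from GENCODE for 87. Library totals were 20.3 to 42 M counts.

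Counts were tested with edgeR 4.0.16 in R 4.3.3 (TMM, filterByExpr, robust quasi-likelihood test) in 1 fit of all 15 libraries with 12 residual degrees of freedom. Tests were two-sided, the adjustment for 19388 tested genes followed Benjamini and Hochberg, and genes under 0.05 count as called. Intervals at 95% come from the fit's standard errors. The biological coefficient of variation was 16.3%. Level per kb used the union of GENCODE exons. Libraries were compared by genotype only, and the script was tested on simulated data. Values in every library are given for genes past the threshold, those with an unadjusted p under 0.05, and the highest of each role by CPM; list genes are named where they passed, at most 4 a list. The genes, lists and markers were chosen with earlier results of these data known. Alternatives were 11 other settings (including DESeq2 1.42.0, limma 3.58.1, other scalings and filters) and 15 fits that each left out 1 library. Summaries were made in Python 3.11.15 with pandas 2.3.3, and the plots with matplotlib 3.10.9.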

Additional observations from a re-analysis of the deposited data

Results flagged for a closer look

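In 7 of 123 groups of 5 libraries (41 genes in 3 genotypes) 1 library lay far from the other 4 by Dixon's criterion, and chance alone marks about 1 in 20, or 6. Gsta4 stood at 44.5 CPM in HET-718, with the next HET library at 51.4. Gstm2 stood at 640.4 CPM in KO-696, where the next KO library had 802. Gstp2 reached 3.51 CPM in WT-719, against 2.08 in the next WT library, a gene whose reads can be assigned to Gstp1. Gsto1 reached 13.1 CPM in KO-739, against 8.64; skeletal muscle markers summed to 4268 CPM in that library and to 89.8 at most in the others, and their part was not tested. Gstz1 was low in WT-709 (53.9 CPM, next 59.5) and in HET-692 (57.6 CPM, next 62.8). Gstt1 reached 21.7 CPM in KO-695, against 16.5. The 7 cases fell in 7 different libraries.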

How the results depend on the processing

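No paired analysis was possible because each animal number occurs once and the genotypes share none. The count of genes called in KO against WT was 1 in the analysis as reported. It was 0 without a low-count filter beyond 1 count (2.47% of all genes called) and with only the 2 groups compared (1.52%). It was also 0 with the animal number range as a term (0.913%) and with only animals numbered above 700 (0%). It was 3 with DESeq2 (against 10% of all genes) and 4 without the 2 libraries over 1% ribosomal RNA (against 14%). Leaving out 1 library gave 0 to 4, with 0 in 12 of 15 fits and 4 without KO-738 (against 15% of all genes). In KO against HET the count of 0 became 1 with DESeq2 (against 6.57% of all genes) and 7 with limma voom (10.1%). It was 5 without the 2 libraries over 1% ribosomal RNA (8.52%). Leaving out 1 library gave 0 to 5, with 5 without KO-738 (12.5%). In HET against WT it was 0 under all 26 alternatives. Over all genes the KO against WT count of 1163 became 1930 with DESeq2, 2923 without KO-738, 287 with only the 2 groups, 177 with the number range as a term and 0 with only animals above 700; the KO against HET count of 380 became 1952 with limma voom, 2443 without KO-738 and 0 without HET-735. Of 934 alternative values for 36 single-gene results, 782 kept direction and side of the threshold, 115 lost a call, 23 gained one and 14 changed sign. In KO against WT, Gstt3 became 0.012 with library totals only and 0.001 with only animals above 700, and it ran from -0.043 (without KO-738) to 0.023 (without KO-694) when 1 library was left out. Sod1 ran from -0.013 (without KO-695) to 0.047 in such fits, and Txn1 from -0.06 to 0.010 (without WT-720), with 0.000 above 700. Nqo1 became 0.041 with the number range as a term and 0.117 above 700. In HET against WT, Sod3 became -0.033 with that term and ran from -0.012 (without WT-726) to 0.133 when 1 library was left out, and Gsto2 became -0.104 with the term and -0.040 above 700. The cause of these changes was not tested. Depth limits Gsta1, Mgst2 and Gstm3, and shared sequence limits Gstp1, Gstp2 and Gsta2. Txnrd2 is limited by its spread, with 7 to 95 counts and a coefficient of variation of 85.2%, and the cause of that spread was not tested.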
